A study of Mus musculus with 2 samples.

Results

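The Mir181 family of the mouse comprises 6 microRNA (miRNA) hairpin genes, Mir181a-1, Mir181a-2, Mir181b-1, Mir181b-2, Mir181c and Mir181d. They were found by matching the Ensembl identifiers of the count files, without their versions, to GENCODE symbols, and all 6 were among the 1973 miRNA genes listed. The samples were limbs of B6NCrl mouse embryos at day 11.5, dissected from healthy embryos of mixed sex and pooled, 109 embryos for replicate 1 and 88 for replicate 2. They formed 1 untreated group without a second tissue, age or genotype, so no condition could be compared. Each library was made from RNA under 30 nt per the labels, and both pools carry the same donor identifier. Nothing in the labels says what that identifier stands for, so p-values only compare these libraries with each other. They set the difference against counting error alone unless stated otherwise.

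A miRNA is cut from a hairpin precursor as a short RNA that guides Argonaute proteins to messenger RNAs, mainly through its seed, bases 2 to 8 from its 5′ end. Hairpins with the same seed form a family, because they can recognise the same sites. In mouse T cells miR-181a is known to tune the sensitivity of the antigen receptor. In mouse myoblasts miR-181 is known to repress the homeobox gene Hoxa11, which also patterns the limb. The question addressed here is which of the family's hairpins supplied the counted reads in the limb.

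The mature 5′ arms are shown first because they define the family, with the seed in capitals (RefSeq, GRCm38.p6). They are written 5′ to 3′. miR-181a-5p is encoded at chr1:137966468-137966490 and chr2:38852741-38852763, both on the plus strand. miR-181b-5p is encoded at chr1:137966650-137966673 and chr2:38853845-38853868, also on the plus strand. miR-181c-5p lies at chr8:84178924-84178945 and miR-181d-5p at chr8:84178759-84178781, both on the minus strand.
miR-181a-5p: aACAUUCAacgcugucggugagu
miR-181b-5p: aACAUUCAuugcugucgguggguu
miR-181c-5p: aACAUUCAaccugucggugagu
miR-181d-5p: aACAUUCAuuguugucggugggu

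All 6 hairpins carried the seed ACAUUCA, and in the RefSeq miRNA table no other mouse hairpin did. Outside the seed the 5′ arms fell into 2 pairs. The arms of miR-181b and miR-181d differed at 1 base in their common length, C12U, counted from 1 at the 5′ end with the base of miR-181b first. The arms of miR-181a and miR-181c were 1 edit apart, against 4 edits between miR-181a and miR-181b.

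The 3′ arms differed more, and each of the 6 hairpins had one of its own. They are shown because they distinguish the copies whose 5′ arms are identical, again with bases 2 to 8 in capitals.
miR-181a-1-3p: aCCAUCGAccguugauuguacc
miR-181a-2-3p: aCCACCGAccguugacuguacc
miR-181b-1-3p: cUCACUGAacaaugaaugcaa
miR-181b-2-3p: cUCACUGAucaaugaaugcaaa
miR-181c-3p: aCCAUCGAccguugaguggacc
miR-181d-3p: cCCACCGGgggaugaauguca

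The 3′ arms of Mir181a-1 and Mir181c shared the seed CCAUCGA, and those of Mir181b-1 and Mir181b-2 shared UCACUGA. Those of Mir181a-2 and Mir181d had seeds that no other mouse hairpin in the table had.

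Mir181a-1 and Mir181a-2, and likewise Mir181b-1 and Mir181b-2, are the duplicated members. Their hairpins are printed with the longest stretch identical in the other copy in capitals.
Mir181a-1: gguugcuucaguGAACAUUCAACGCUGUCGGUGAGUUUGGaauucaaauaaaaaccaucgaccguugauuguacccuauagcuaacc
Mir181a-2: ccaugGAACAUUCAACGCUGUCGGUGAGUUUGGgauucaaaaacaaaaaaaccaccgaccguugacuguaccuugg
Mir181b-1: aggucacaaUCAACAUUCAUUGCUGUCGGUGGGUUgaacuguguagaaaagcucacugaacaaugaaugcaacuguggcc
Mir181b-2: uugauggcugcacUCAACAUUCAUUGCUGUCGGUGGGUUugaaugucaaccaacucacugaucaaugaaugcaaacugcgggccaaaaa

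The shared stretch was 28 nt in the Mir181a hairpins and ran 4 nt past the end of the 5′ arm. In the Mir181b hairpins it was 26 nt and ended with the arm, so that the hairpins differ from the next base on. Neither 5′ arm of these copies therefore holds a base that tells the copies apart. Mir181c and Mir181d had no stretch of 20 nt in common with any other annotated hairpin, while 9 of the 20-nt windows of each Mir181a hairpin and 7 of those of each Mir181b hairpin did. Exact matches of the arms were searched in annotated hairpins and transcripts only. Apart from the hairpins themselves they occurred in A430106G13Rik, a noncoding transcript whose exon holds Mir181b-1.

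**Figure D1:**
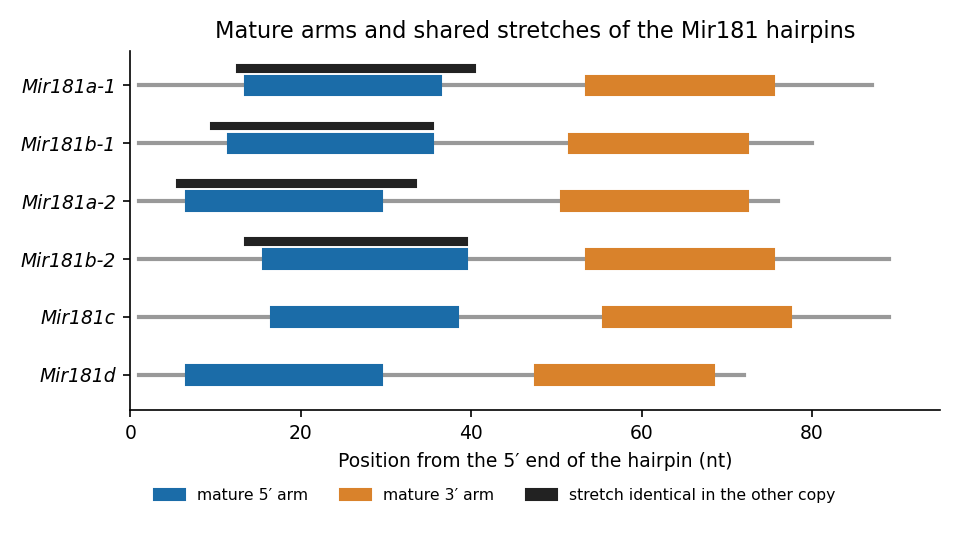
The mature arms of the 6 hairpins are drawn by position in nt from the 5′ end of each hairpin (blue, 5′ arm; orange, 3′ arm), and the black bars mark the stretch identical in the other copy. The black bars cover the whole 5′ arm of the 4 duplicated hairpins and none of their 3′ arms.

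This bears on the counts because each file has a line of its own for multimapping reads. How such reads were handled is not given in the sources used here, and the line is taken by its name to hold reads that fit several places and were given to no gene. It held 1644176 reads in replicate 1 and 1738400 in replicate 2, or 24.7% and 23.4% of all reads. The files do not record which miRNAs those reads came from, nor which arm a counted read came from. The counts of Mir181a-1, Mir181a-2, Mir181b-1 and Mir181b-2 may therefore be too low. The stretch identical in the copies runs 4 nt past the 5′ arm in Mir181a and 0 nt past it in Mir181b. Any loss may thus be unequal between them, which was not tested. Comparisons of these 4 hairpins with each other and with Mir181c and Mir181d are comparisons of counted reads.

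The 6 hairpins lie in 3 clusters of 2. Mir181a-1 (ENSMUSG00000065565.1, chr1:137966455-137966541) and Mir181b-1 (ENSMUSG00000065458.1, chr1:137966639-137966718) are 97 nt apart on the plus strand of chromosome 1 within an intron of the noncoding gene Gm4258. On the same strand Mir181b-1 lies wholly in an exon of A430106G13Rik, which overlaps the last 11 nt of Mir181a-1. Mir181a-2 (ENSMUSG00000065423.1, chr2:38852735-38852810) and Mir181b-2 (ENSMUSG00000065578.1, chr2:38853830-38853918) are 1019 nt apart on chromosome 2. They lie opposite an intron of Nr6a1, which encodes an orphan nuclear receptor, and Mir181b-2 also lies opposite an exon of the tentatively annotated transcript Gm44144. Mir181c (ENSMUSG00000065483, chr8:84178873-84178961) and Mir181d (ENSMUSG00000076338.1, chr8:84178716-84178787) are 85 nt apart on the minus strand of chromosome 8. They lie in an intron of Nanos3, a gene known from germ cell development. Coordinates are those of GENCODE M21 on mm10. For Mir181c that release holds a later version of the gene than the files.

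Sense counts of miRNA genes totalled 2953085 in replicate 1 and 3459176 in replicate 2, of 6661559 and 7420829 reads. Levels are given in CPM, sense counts scaled to a common library total. With 0 counts, a level of up to 1.02 CPM remains possible in replicate 1 and up to 0.867 CPM in replicate 2 (3 counts of the total), which covers counting error only, as the intervals below do. Of 8 miRNAs chosen as markers of limb mesenchyme and cartilage, all 8 reached 10 CPM in both libraries, led by Mir196b with 72172 and 68466 CPM and Mir214 with 40112 and 38032 CPM. The 3 listed markers of white blood cells, where miR-181 is best known, summed to 0.0660% and 0.0725% of the counts, with Mir155 at 396 and 431 CPM and Mir223 at 259 and 289 CPM. That sum leaves out Mir146, which the marker list held as Mir146a and which was not matched, with 32.2 and 30.6 CPM. It also leaves out the locus of miR-142, another miRNA of blood cells. There Mir142b had 0 sense counts and 1855 and 1978 counts on the opposite strand. The 2 listed erythroid markers, Mir451a with 331 and 451 CPM and Mir144 with 36.6 and 30.6 CPM, summed to 0.0367% and 0.0481%. The 8 listed neural markers summed to 0.0271% and 0.0285%, led by Mir137 with 203 and 219 CPM and Mir219a-1 with 45.4 and 38.7 CPM. Of these 8, 4 were at 0, namely the 3 copies of Mir124a, a defining neuronal miRNA, and Mir9-2. Copies of each of these miRNAs have their mature sequence in common, so a 0 there does not show that the miRNA was absent. The endothelial marker Mir126a held 2.43% and 2.41% of the counts. In bulk tissue, fewer cells of a type and less RNA per cell cannot be told apart, and the part of these cell types in the Mir181 counts was not tested.

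The Mir181 family as a whole held 1.91% ± 0.07 of the counts (SD, n = 2), and the cluster on chromosome 8 supplied most of them. The 6 hairpins had 55124 sense counts in replicate 1, a share of 1.87% with a Wilson 95% interval of 1.85 to 1.88%. In replicate 2 they had 67793, a share of 1.96% with an interval of 1.95 to 1.97%. These intervals do not overlap. None of the 6 had a count on the opposite strand in either library, which allows up to 3 counts each.

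Mir181d and Mir181c, the hairpins with 5′ arms of their own, were the most abundant. Mir181d had 21128 counts in replicate 1 and 25243 in replicate 2, which is 7155 and 7297 CPM. It ranked 29th among all listed genes by mean level. Mir181c had 18864 and 22332 counts, or 6388 and 6456 CPM, and ranked 31st. In each library Mir181d was the higher of the pair. Mir181d exceeded Mir181c by 0.17 ± 0.01 log2 units, or 1.13-fold (SD, n = 2), with a counting error of 0.01 log2 units in each library. The gap was small but exceeded both the spread and the counting error.

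In the cluster on chromosome 2, Mir181b-2 was high and Mir181a-2 low in counted reads. Mir181b-2 had 8650 counts in replicate 1 and 12351 in replicate 2, or 2929 and 3570 CPM. Mir181a-2 had 923 and 1043 counts, or 313 and 302 CPM. Mir181b-2 was the higher hairpin in both libraries. The ratio of Mir181b-2 to Mir181a-2 was 9.37 in replicate 1 and 11.8 in replicate 2, a mean of 3.40 ± 0.24 log2 units.

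In the cluster on chromosome 1 the order of a and b in counted reads was the other way round. Mir181a-1 had 5400 counts in replicate 1 and 6637 in replicate 2, or 1829 and 1919 CPM. Mir181b-1 had 159 and 187 counts, or 53.8 and 54.1 CPM, the lowest level in the family. Mir181a-1 was 34.0-fold above Mir181b-1 in replicate 1 and 35.5-fold in replicate 2, a mean of 5.12 ± 0.04 log2 units. The counting error of that ratio was 0.12 and 0.11 log2 units, larger than its SD, because of the low counts of Mir181b-1.

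The levels fell in the order Mir181d, Mir181c, Mir181b-2, Mir181a-1, Mir181a-2 and Mir181b-1 in both libraries, and the order was the same when counts were divided by hairpin length. Each neighbour in this order was separated by more than the spread between libraries. The closest were Mir181d and Mir181c. Mir181c stood 0.99 ± 0.19 log2 units above Mir181b-2, which stood 0.79 ± 0.15 above Mir181a-1. Mir181a-1 stood 2.61 ± 0.09 above Mir181a-2, which stood 2.51 ± 0.04 above Mir181b-1, with counting errors of 0.12 and 0.11 in the last ratio. With 2 libraries the smallest p of an exact sign-flip test is 0.5, and these ratios carry no test. The spreads do not include any bias of library preparation that both libraries have in common, nor any unequal loss of multimapping reads.

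**Figure D2:**
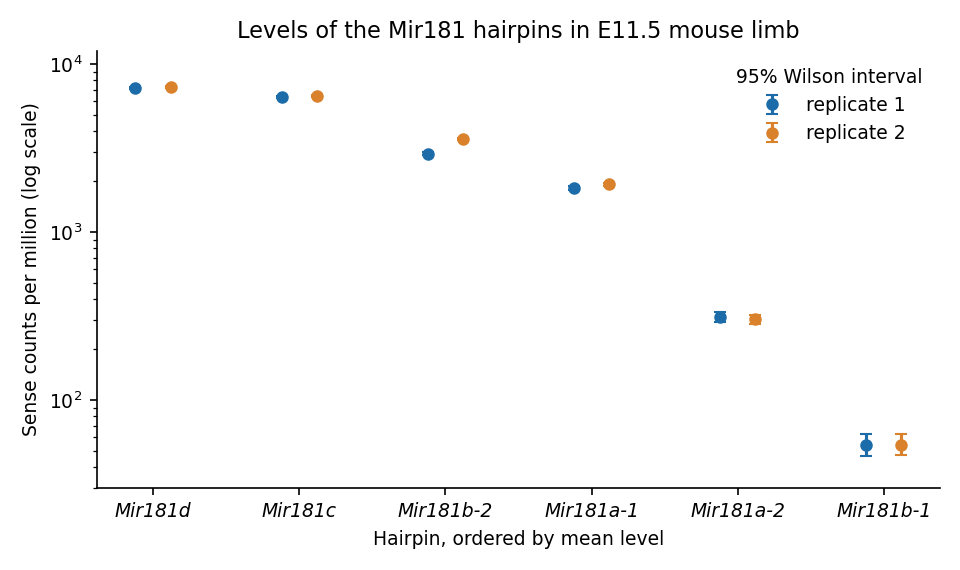
Points are CPM of each hairpin in each library on a log scale, and bars are Wilson 95% intervals, which are narrower than the points at high levels. The hairpins run from 7155 and 7297 CPM for Mir181d to 53.8 and 54.1 CPM for Mir181b-1, and the libraries lie close together except at Mir181b-2.

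Compared as clusters, Mir181c and Mir181d together had 39992 counts in replicate 1 and 47575 in replicate 2, or 1.35% and 1.38% of the library. Mir181a-2 and Mir181b-2 together had 9573 and 13394 counts, or 0.324% and 0.387%. Mir181a-1 and Mir181b-1 together had 5559 and 6824, or 0.188% and 0.197%. The cluster on chromosome 8 stood 1.95 ± 0.17 log2 units above that on chromosome 2, which stood 0.88 ± 0.13 above that on chromosome 1. These gaps exceeded the spread between libraries.

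Mir181c and Mir181d made up 71.4% ± 1.7 of the family's counts (SD, n = 2), with 72.5% in replicate 1 and 70.2% in replicate 2. The Wilson 95% intervals, 72.2 to 72.9% and 69.8 to 70.5%, did not overlap. The 4 duplicated hairpins held 28.6% ± 1.7. Mir181c and Mir181d together exceeded the 4 duplicated hairpins 2.64-fold in replicate 1 and 2.35-fold in replicate 2. Any reads of the identical 5′ arms that were set aside as multimapping would be missing from the second sum, and their number is not known. The multimapping line of each file was 29.8 and 25.6 times the family's counts.

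**Figure D3:**
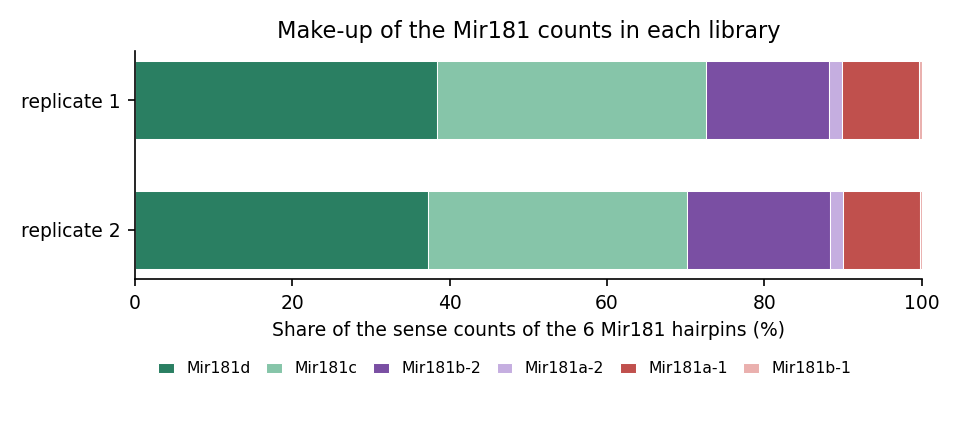
Bars give the share of each hairpin in the family's sense counts, in percent, for each library, with hairpins of a cluster in shades of 1 colour. Mir181d and Mir181c fill 72.5% of the bar in replicate 1 and 70.2% in replicate 2, and Mir181b-2 takes 15.7% and 18.2%.

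The copies of Mir181b were far apart in level and those of Mir181a less so. The higher copy, Mir181b-2, exceeded Mir181b-1 54.4-fold in replicate 1 and 66.0-fold in replicate 2. The higher copy of the other pair, Mir181a-1, exceeded Mir181a-2 5.85-fold and 6.36-fold. Among 22 pairs of copies of other duplicated miRNAs from a fixed list, 16 had more than 3 counts in each library for the lower copy. In those 16 the higher copy was 1.34 to 42.0 times the lower, with a median of 4.15. None of the 16 had a wider split than Mir181b, and 6 had a wider split than Mir181a. The other 6 pairs were left out for a low copy near 0, a filter that can remove wide splits. Among them Mir194-2 averaged 65.9 CPM and Mir194-1 averaged 0.867 CPM, by these means a wider split than that of Mir181b but on 6 counts of the lower copy. Among the 16, the pair nearest to Mir181b was Mir196a-2 over Mir196a-1. The list held Mir7-1 and Mir7-2 under other symbols, so that pair was not matched and is in none of these counts. Mir7-1 averaged 132 CPM and Mir7-2 averaged 8.18 CPM, by these means a wider split than that of Mir181a. These values are a description of counted reads, since each such pair also shares a mature arm.

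**Figure D4:**
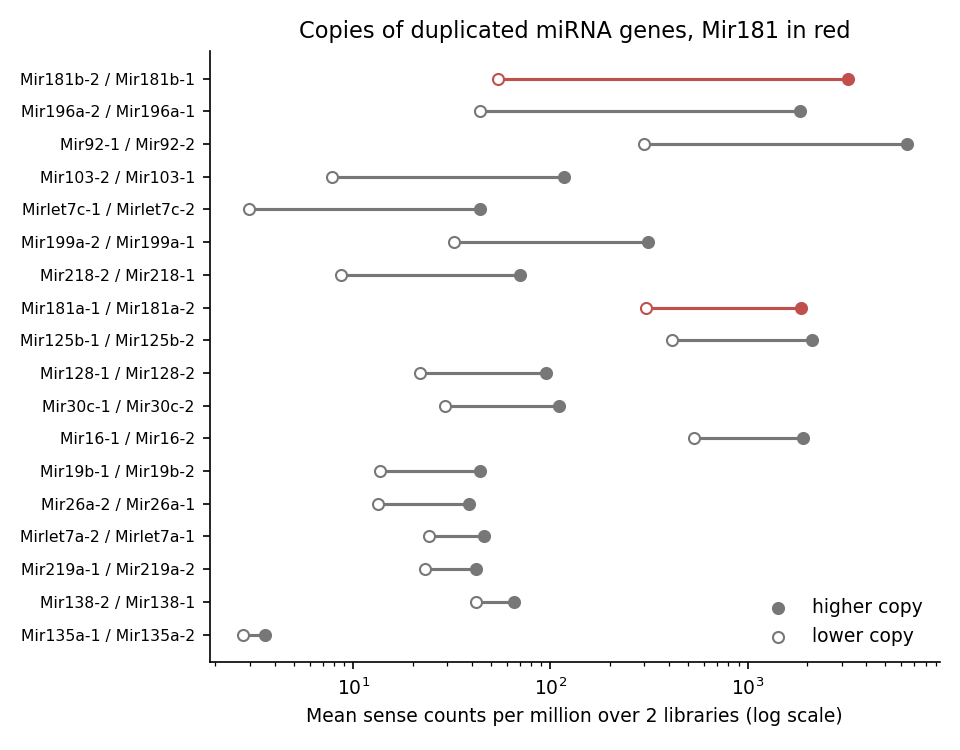
Each line joins the higher copy (filled) and the lower copy (open) of a duplicated miRNA by mean CPM over 2 libraries, on a log scale. Shown are the matched pairs whose lower copy had more than 3 counts in each library. The Mir181b pair, at the top, spans 3250 to 54.0 CPM and the Mir181a pair 1874 to 307 CPM.

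Among all listed genes, 53 had 1 mature arm in common with another gene and a further arm of their own in the RefSeq list of miRNAs, as the 4 duplicated Mir181 hairpins do. In that class Mir181b-2 had the second highest mean level, Mir181a-1 the fifth, Mir181a-2 the ninth and Mir181b-1 place 21. The median of the class was 38.7 CPM over its 53 genes, of which 33 reached 10 CPM in both libraries. Mir181c and Mir181d belonged to the 829 genes with no arm in common with another gene, of which 234 reached that level. Of those 829 genes 28 had a higher mean level than Mir181d. Another 1057 listed genes had no entry under their symbol in the RefSeq list and were not classed. Of these, 23 reached 10 CPM in both libraries, and together the 1057 held 1.86% and 1.92% of the counts. The 46 listed genes of a list of other duplicated hairpins had a median of 35.7 CPM, with 30 at 10 CPM or more in both libraries. Mir92-1, of the Mir17-92 cluster, led that list with 6531 and 6282 CPM, followed by Mir125b-1 with 2125 and 2101 CPM.

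The genes nearest in level to Mir181d over the 2 libraries, by Euclidean distance of log2(CPM + 1), were Mir483, Mir296 and Mir100. Their distances were 0.11, 0.19 and 0.21 log2 units. Mir483 had 6875 and 6855 CPM, Mir296 had 7980 and 7829 CPM, and Mir100 had 7673 and 8298 CPM.

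Within 100 kb of the members, other miRNA genes were annotated only around the chromosome 8 cluster. Mir23a, Mir27a and Mir24-2 lie about 30 kb away on the opposite strand. Mir23a had 9205 and 8962 CPM, above both Mir181 hairpins. Mir27a had 196 and 191 CPM and Mir24-2 had 137 and 129 CPM. Mir709 and Gm25110, also within that distance, had no sense count. Mir3074-2, 29.9 kb away on the strand of Mir181c and Mir181d, was not analysed here.

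Mir181b-2 was the 1 member called different between the libraries. Its level, 2929 CPM in replicate 1 against 3570 CPM in replicate 2, gave a log2 ratio (replicate 1 over replicate 2) of −0.28 with an adjusted p of 1.58e-42. The test was a two-sided exact binomial test against library sizes scaled by TMM (edgeR), adjusted by Benjamini-Hochberg over 422 genes, and it compares these libraries, not conditions. This p covers counting error only, and over all tested genes the counts varied more than counting allows, with a chi-square of 18.7 for each degree of freedom. Of those genes 9.95% were called lower in replicate 1 and 9.95% higher. Read against that background, 1 call among 6 members does not set the family apart. Of 93 genes with a mean of 1000 CPM or more, 6 had a wider log2 ratio than Mir181b-2, and the median difference of the 93 was 1.04-fold. When the test allowed for overdispersion, the adjusted p of Mir181b-2 was 5.62e-16. That allowance was set by the median tested gene, not by the chi-square of 18.7 for each degree of freedom. No test used that larger factor. Cell type markers also differed between the libraries. Of the 8 markers of limb mesenchyme and cartilage 5 were called higher in replicate 1, and the erythroid marker Mir451a was lower there (log2 ratio −0.44, adjusted p of 6.76e-13 by the same exact binomial test). The other listed erythroid marker, Mir144, went the other way and was not called (log2 ratio 0.26, adjusted p of 0.45 by that test). None of the tested white blood cell, neural and endothelial markers was called, and the part of these shifts in the ratio of Mir181b-2 was not tested.

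The other 5 members had ratios near 0. Mir181a-1 had −0.06 with an adjusted p of 0.0723, and 0.0442 when library sizes were taken as total counts, so its call depends on the scaling. Mir181d had −0.02 and Mir181c −0.01, with adjusted p-values of 0.257 and 0.738 by the same exact binomial test. Mir181a-2 had 0.06 and Mir181b-1 −0.00035. The median over the 6 members was −0.02, against −0.01 over all tested genes. The partner of Mir181b-2 in its cluster, Mir181a-2, and its copy Mir181b-1 were therefore not called, and the test did not address whether the members' ratios differ from each other. Mir181b-1 had only 159 and 187 counts, so counting error could hide a shift of the size seen in Mir181b-2.

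**Figure D5:**
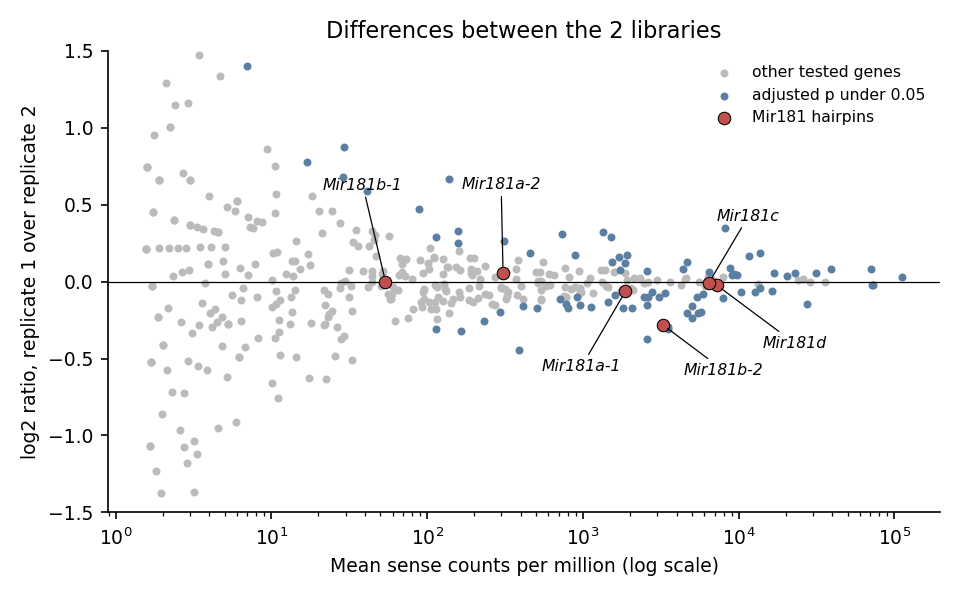
Each point is a gene tested for a difference between the libraries, by mean CPM on a log scale and by log2 ratio of replicate 1 over replicate 2; 6 genes lie beyond the axis limits of 1.5. Mir181b-2 sits at −0.28, and the other 5 Mir181 hairpins lie between −0.06 and 0.06.

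Lists of myogenic and of other duplicated miRNAs were set beside the family, because miR-181 is known from myoblast differentiation and 4 of its hairpins are duplicated. Of 9 listed myogenic miRNAs 2 reached 10 CPM in both libraries, and the 3 at 0, Mir133a-1, Mir133a-2 and Mir1a-1, are copies of miRNAs encoded more than once, whose reads may have been set aside. Mir206, specific to skeletal muscle, had 529 and 552 CPM, and Mir133b had 31.2 and 24.0 CPM. In that list 1 of 6 tested genes passed, Mir208b, which lies in a cardiac myosin gene and was named after its values were seen. Its levels were 31.2 and 8.67 CPM. The median log2 ratio of the list was 0.47. In the list of other duplicated hairpins 6 of 36 tested genes were higher in replicate 1, Mir92-1 among them, and 1 was lower, Mir125b-2, also named after its values were seen. The median log2 ratio of that list was 0.07. Over all tested genes 9.95% were called in each direction.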

How the data were processed

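Per the notes deposited with each sample, the files are gene quantifications on assembly mm10 with GENCODE annotation M4. Which aligner and counter made them is not given in the sources used here. The deposited values are raw counts of reads for each miRNA gene in 3 columns, for both strands, sense and opposite; the sense column was recognised from the values. Lines for unmapped, multimapping, featureless and ambiguous reads stayed out of library sizes.

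Sense counts were scaled to CPM. Identifiers were matched to GENCODE M21 (1894 of 1973 genes), and RefSeq mature arms to all 6 members by symbol. Genes with 10 or more counts over both libraries were tested by an exact binomial test at an adjusted p of 0.05. Log2 ratios used a prior count of 0.5. The test was checked on simulated counts that varied by counting error only. That check does not cover the wider spread seen between these libraries. edgeR's quasi-likelihood test could not be used with 1 group. A chi-square test of the libraries' counts gave 18.7 for each degree of freedom. That is more spread than counting error alone would give in reads drawn from 1 library. Tools were R 4.3.3 with edgeR 4.0.16 and DESeq2 1.42.0 (size factors), and pandas 2.3.3, scipy 1.17.1 and numpy 2.4.6 in Python 3.11.15. Named besides the members are the 3 genes nearest in level to Mir181d, the 2 most abundant genes of each list, and annotated neighbours. Mir9-2, Mir142b, Mir146, Mir208b, Mir125b-2 and the copies of Mir1a, Mir7, Mir124a, Mir133a, Mir194 and Mir196a were named after their values were seen. Members and lists were chosen with earlier results of these data known. Alternatives covered the count column, denominator, scaling, filter, pseudocount, prior count, an overdispersed test and each library alone.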

Additional observations from a re-analysis of the deposited data

How the results depend on the processing

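With all reads of the file as the denominator in place of sense counts, the family's share was 0.871%, and the shares of the clusters were 0.621% for Mir181c and Mir181d, 0.162% for Mir181a-2 and Mir181b-2, and 0.0877% for Mir181a-1 and Mir181b-1. With both strands summed, the share of Mir181c and Mir181d was 1.33%. Leaving out members that share a 20-nt stretch with another hairpin leaves Mir181c and Mir181d, at 1.36%. With total counts as the scaling, 2 members differed between the libraries in place of 1, Mir181a-1 being added; DESeq2 size factors, no filter, a prior count of 2, both strands and the overdispersed test each called 1 member, Mir181b-2. Over all genes the overdispersed test called 24 lower and 23 higher in replicate 1, against 42 and 42. With each library alone, the family's share was 1.87 to 1.96%, and no ratio within or between clusters changed sign. No paired analysis was possible because the series holds 1 group. Depth limits Mir181b-1 most, with 159 and 187 counts.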
